A study of Mus musculus with 12 samples.

Results

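The comparison was between 3 arrays of CD24 DCs from spleen and 3 arrays of common DC progenitors (CDPs) from bone marrow, and it covered every gene with 1 symbol on the array. These 6 arrays, chosen by their titles, were part of a set of 12 whole-transcript Affymetrix arrays of 5 sorted mouse populations. All groups were C57Bl/6 mice carrying a GFP reporter at 1 allele of Zbtb46 (Zbtb46GFP/+, N8) at steady state, so CDPs and CD24 DCs had the same altered allele. CD24 DCs were sorted from spleen as CD11c+ CD24+ CD172a- cells, and their label also reads MHC II-. CDPs were lineage-negative marrow cells (Lin-) with CD135 and CD115, an intermediate level of CD117 (CD117int) and neither CD11c nor MHC II. Values of CD172a DCs (2 arrays, CD11c+ MHC II+ CD172a+ spleen cells) and of pre-CD8 progenitors (2 arrays, Lin- marrow cells that were CD117int, CD135+ and CD11c+, with intermediate MHC II and no Siglec H) are given beside them where they bear on a gene. Per the series description, each harvest took 8 to 10 littermates and the sorts reached high purity. The labels did not say whether the arrays of a group were separate mice or separate pools, so p-values measure only the spread between arrays, which may be technical.

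CDPs are the marrow progenitors from which classical DCs and plasmacytoid DCs arise. CD24 DCs of the spleen belong to the lineage called cDC1, which takes up dying cells and presents their antigens on MHC class I to CD8 T cells. The lineage is known to need the transcription factors Irf8, Batf3 and Id2, to carry the chemokine receptor Xcr1 and to sense double-stranded RNA in endosomes through Tlr3. Spleen cells were freed by enzymes (collagenase B, DNAse1), whereas marrow was crushed with mortar and pestle. CD24 DCs and CDPs therefore differed in stage, organ and release method together, and these cannot be told apart. In bulk RNA, a smaller number of cells of a type and less RNA per cell cannot be told apart either.

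Array means of the deposited log2 values were close, between 5.28 and 5.34 over the 12 arrays. The interquartile range was 2.59, 2.40 and 2.10 on the CD24 DC arrays, against 2.86, 2.67 and 2.72 on the CDP arrays. The narrowest of these 6 belonged to CD24 DC array 3. Values correlated over genes at r = 0.925 to 0.962 among CD24 DC arrays, at r = 0.970 to 0.987 among CDP arrays and at r = 0.858 to 0.928 between the groups. Genes are not independent replicates, so these r values describe the arrays only. No detection calls were used here, and the background level of the arrays is unknown.

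The genes of the sort gates were looked at first, as a check of the labels. Itgax, which encodes CD11c, was 10.23, 9.61 and 9.89 on the CD24 DC arrays, against 6.17, 5.84 and 6.19 on the CDP arrays. Csf1r, which encodes CD115, was 5.37, 5.51 and 6.20 in CD24 DCs, against 8.99, 9.25 and 9.17 in CDPs. Sirpa, which encodes CD172a, was 5.71, 6.03 and 5.81 in CD24 DCs, against 8.20, 8.00 and 8.17 in CDPs. These transcripts ran the way the gates did, with no overlap of the groups. Over all genes the groups did not overlap at 18.6% with CD24 DCs higher and at 18.9% with CD24 DCs lower. Kit, which encodes the receptor CD117 of the CDP gate, did not: it was 9.70, 9.63 and 9.79 in CD24 DCs, against 8.51, 8.16 and 8.04 in CDPs, a log2 difference of 1.47 ± 0.19 (SE, adjusted p = 8.23e-05). Cd24a was high in both populations, at 11.55, 11.84 and 11.44 in CD24 DCs, against 11.34, 11.38 and 11.18 in CDPs (adjusted p = 0.299). Flt3, which encodes CD135, differed by 0.59 ± 0.20 and did not pass the test (adjusted p = 0.0538), but passed it with the number of the array as a replicate block (adjusted p = 0.0391). Genes of class II chains were higher in CD24 DCs on the log2 scale, H2-Aa by 6.89 ± 0.37, H2-Eb1 by 6.39 ± 0.25 and H2-Ab1 by 5.60 ± 0.37, although the label of CD24 DCs reads MHC II-. These genes are left out of the counts of gene lists below.

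CD24 DCs and CDPs differed at 4690 of 22184 genes, 21.1% of those tested, by limma with Benjamini-Hochberg adjustment over all of them and a threshold of 0.05. Of these, 1841 genes (8.30%) were higher in CD24 DCs and 2849 (12.8%) were lower. Counts of called genes in the lists below are to be read beside these shares. The large changes ran more often upward: 137 called genes were higher by at least 3 on the log2 scale and 59 were lower by as much, and at 4 the numbers were 65 and 22. The median difference over all genes was 0.116, and differences are read against it. With each array centred on its median that median was -0.039, and 1237 genes were called higher and 3382 lower, so that 26.8% of the calls were higher in CD24 DCs in place of 39.3%. With the interquartile range of each array as a covariate, 1450 genes were called higher and 1380 lower.

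Among the 15 largest increases were the genes of a chemokine (Cxcl9), a cytokine (Il1b) and a scavenger receptor (Cd36). Cxcl9, a chemokine that attracts activated T cells, was 11.52, 11.66 and 11.69 on the CD24 DC arrays, against 4.47, 4.53 and 5.06 on the CDP arrays. The difference of 6.93 ± 0.27 (122-fold, adjusted p = 3.78e-09) was the largest of all genes. Il1b, the gene of interleukin 1 beta, was 10.78, 10.99 and 11.50 in CD24 DCs, against 3.95, 3.94 and 4.67 in CDPs (119-fold). Cd36, a scavenger receptor for lipoproteins and dying cells, was 10.10, 10.07 and 10.13 in CD24 DCs, against 3.20, 3.36 and 3.64 in CDPs (104-fold). The other genes among the 15 largest increases were Gpr141b (6.75 ± 0.44), Apol7c (6.44 ± 0.39), Nr4a3, Tlr3, Dnase1l3 (6.39 ± 0.28), Adam23 (6.13 ± 0.28), Slamf7 (6.10 ± 0.20), Plbd1 (6.10 ± 0.28), Rasgef1b (6.00 ± 0.34), Cd8a and the sort genes H2-Aa and H2-Eb1. Gpr141b has a close copy in the genome, and its value is uncertain to that extent.

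**Figure D1:**
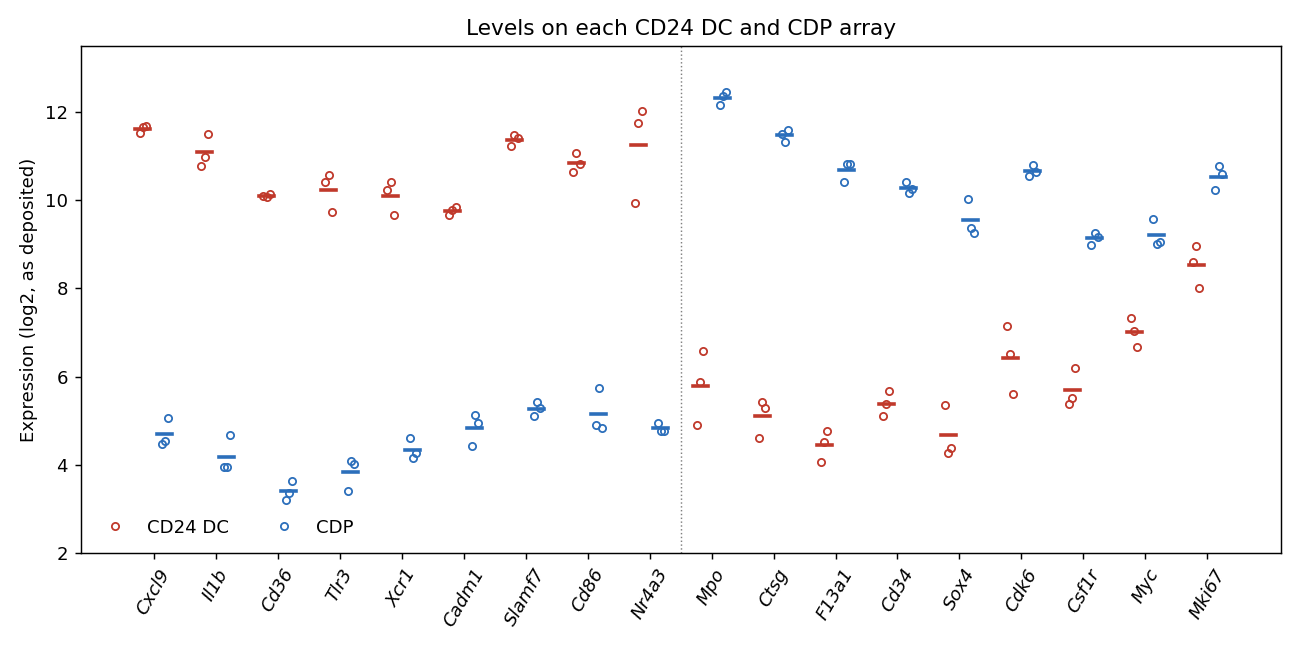
Expression (log2, as deposited) of 9 genes higher and 9 genes lower in CD24 DCs; each open circle is 1 array, CD24 DC left of CDP for each gene, and bars mark group means. The CD24 DC arrays are closest together for genes such as Cxcl9 and Cd36 and furthest apart for Nr4a3, where array 1 lies at 9.95 and the other arrays at 11.76 and 12.03.

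Genes known to mark the cDC1 lineage were higher in CD24 DCs almost without exception. Of 25 such genes measured, 24 rose and none fell, with a median difference of 3.85 against 0.116 for all genes and 8.30% of all genes called higher. Xcr1, the receptor for the chemokine XCL1, was 10.22, 10.41 and 9.66 in CD24 DCs, against 4.60, 4.16 and 4.27 in CDPs (5.76 ± 0.36, adjusted p = 1.56e-07). Cadm1, an adhesion molecule, was 9.67, 9.78 and 9.85 in CD24 DCs, against 4.44, 5.12 and 4.96 in CDPs (4.93 ± 0.31). Cd8a was 10.55, 10.18 and 10.35 in CD24 DCs, against 4.43, 4.59 and 4.29 in CDPs (5.92 ± 0.28). The CD24 DC values lay above every CDP value for each of the 3 genes. Ifi205, an interferon-inducible gene of a family with near-identical copies, rose by 5.70 ± 0.23. The count of 24 was the same under each of the 17 alternatives run, which refit the same arrays. The list was chosen with earlier results of these data known, so the count is a description and not independent evidence.

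Genes shared by classical DCs of both lineages rose as well. Of 18 measured, without the sort genes, 17 were higher in CD24 DCs and none were lower, with a median of 3.65. Slamf7, a receptor of the SLAM family, was 11.22, 11.48 and 11.42 in CD24 DCs, against 5.10, 5.43 and 5.28 in CDPs. Anpep, which encodes aminopeptidase N (CD13), rose by 5.90 ± 0.27. Adam19, a membrane metalloprotease, rose by 5.90 ± 0.26, and Ccl22, a chemokine for CCR4-bearing T cells, by 4.60 ± 0.37. P2ry10, a lysophospholipid receptor, rose by 4.61 ± 0.29. Genes of the other classical lineage, cDC2, were mixed: 4 of 19 rose and 4 fell (21.1% each), and 11 did not pass the test. Their median was 0.13. Those that rose were Ltb (1.59 ± 0.23), Irf4 (1.37 ± 0.32), Esam (0.93 ± 0.18) and Notch2 (0.68 ± 0.18), and those that fell were Itgam (-1.74 ± 0.33), Clec10a (-1.43 ± 0.27), S100a4 (-1.31 ± 0.32) and Cx3cr1 (-1.20 ± 0.19). The call of Notch2 was lost without CDP array 1 or CDP array 3.

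Transcription factors of DC development were called higher at 19 and lower at 8 of 43 genes, with a median of 0.56. Without CDP array 2 the number called lower was 5. Id2, which blocks E proteins, was 10.15, 10.04 and 9.87 in CD24 DCs, against 5.32, 4.95 and 5.15 in CDPs (4.88 ± 0.18, adjusted p = 2.87e-09). Batf3, the AP-1 family factor of the lineage, was 9.62, 9.50 and 8.91 in CD24 DCs, against 4.53, 5.38 and 4.97 in CDPs (4.38 ± 0.37, adjusted p = 2.26e-06). Zbtb46, the gene with the reporter at 1 allele in both groups, was 7.40, 6.68 and 7.07 in CD24 DCs, against 5.02, 5.23 and 5.15 in CDPs (1.92 ± 0.20, adjusted p = 1.57e-05). All 3 factors were separated between the groups. Irf8 was near the top of the array in both groups, at 11.88, 12.15 and 11.68 in CD24 DCs, against 11.53, 11.51 and 11.44 in CDPs. Its difference of 0.41 ± 0.21 did not pass the test (adjusted p = 0.198). Spi1, which encodes PU.1, had a difference of 0.42 ± 0.16 (adjusted p = 0.0913) that missed the threshold, as did the difference of 0.57 ± 0.35 in Klf4 (adjusted p = 0.273). Spi1 was called higher in 1 of the 17 alternatives and Klf4 in none. Bcl6, a repressor, rose by 3.36 ± 0.18, Etv3, an ETS repressor, by 2.60 ± 0.30 and Mycl, the MYC family member of DCs, by 1.31 ± 0.30.

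Among the factors that fell were the E proteins Tcf4 and Tcf3, the targets of Id2. Tcf4, which is needed for plasmacytoid DCs, was 7.14, 6.97 and 6.66 in CD24 DCs, against 8.54, 8.39 and 8.38 in CDPs (-1.51 ± 0.17, adjusted p = 3.01e-05). Tcf3 fell by 1.30 ± 0.16. Cebpa, a factor of granulocyte and monocyte development, fell by 1.30 ± 0.22 and Cebpb by 1.16 ± 0.29. Runx1, a factor of blood stem cells, fell by 0.86 ± 0.23. Myc was 7.33, 7.04 and 6.67 in CD24 DCs, against 9.58, 9.02 and 9.06 in CDPs (-2.21 ± 0.25, adjusted p = 2.85e-05). The call of Cebpb was lost without CDP array 3 and that of Runx1 without CDP array 2. Nfil3 was 6.58, 7.79 and 8.37 in CD24 DCs, against 7.01, 6.93 and 6.98 in CDPs. CD24 DC array 1 lay below and arrays 2 and 3 above the CDP arrays, and the difference of 0.61 ± 0.35 did not pass (adjusted p = 0.237). Nfil3 was called higher in 2 of the 17 alternatives, over which its difference ran from -0.28 to 1.13.

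**Figure D2:**
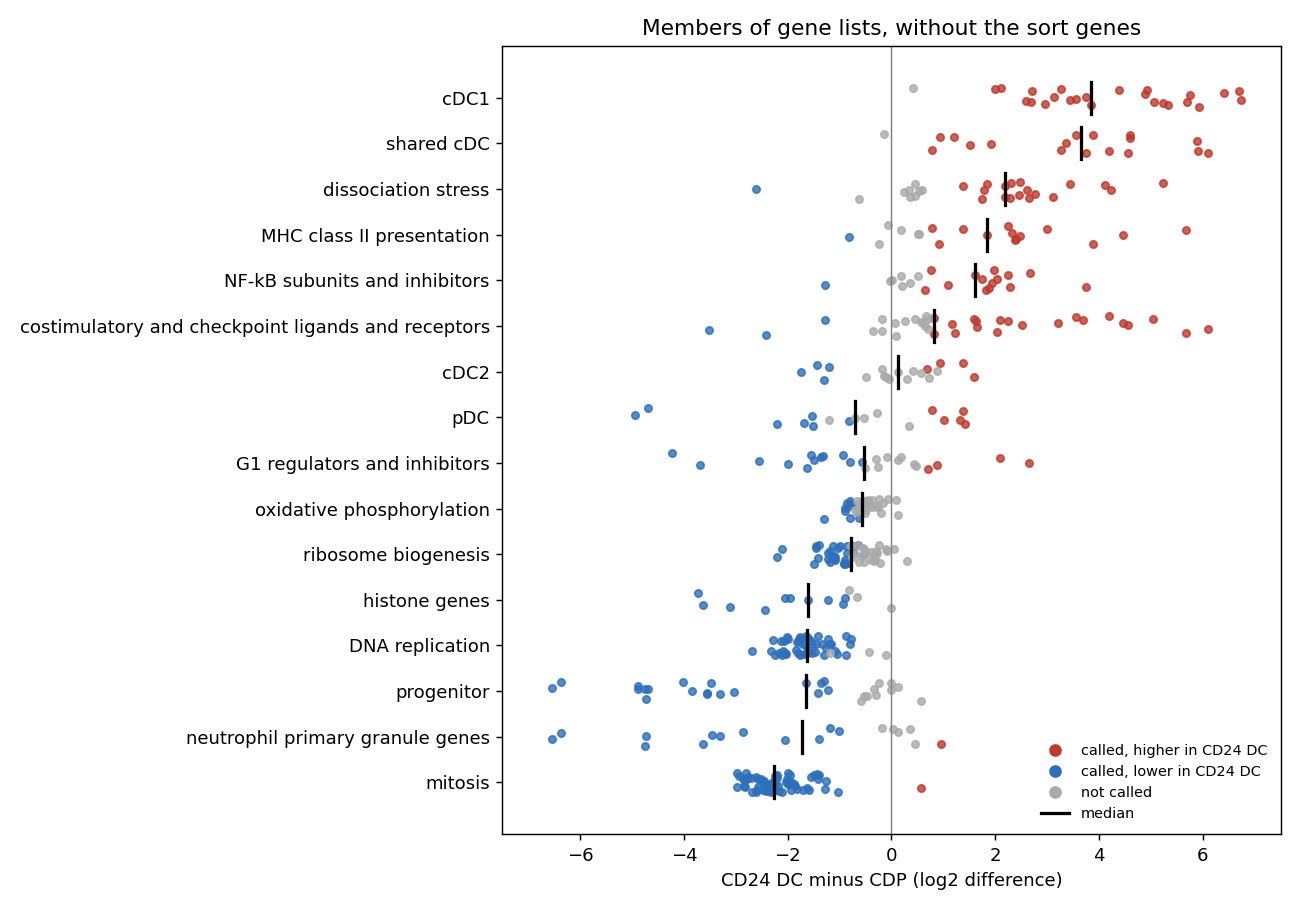
Log2 difference, CD24 DC minus CDP, of every measured member of 16 gene lists without the sort genes; each point is 1 gene, coloured by its call, and the black bar is the median of the list. Medians run from 3.85 for cDC1 genes to -2.26 for mitosis genes. All called members lie to the right for the cDC1 and shared cDC lists and to the left for DNA replication, histone and ribosome biogenesis genes.

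Genes of MHC class II presentation rose in CD24 DCs beyond the chain genes used in the sort. Of 19 further members, 13 rose and 1 fell, with a median of 1.85. Ciita, the transactivator that switches on class II genes, was 9.66, 8.85 and 9.01 in CD24 DCs, against 5.25, 5.48 and 5.13 in CDPs (3.88 ± 0.25, adjusted p = 1.99e-07). H2-Oa and H2-Ob encode the chains of H2-O, which restrains peptide loading. H2-Oa was 10.22, 9.23 and 9.76 in CD24 DCs, against 7.27, 6.45 and 6.50 in CDPs, and H2-Ob rose by 2.41. H2-DMb2, a chain of the H2-M molecule that loads peptide, rose by 2.39. H2-DMa rose less, by 0.92 (adjusted p = 0.0131), and its CDP arrays lay at 9.20 to 9.62. The member that fell was Ctsl, the protease cathepsin L (-0.81 ± 0.18). MHC genes resemble each other, and shared probes could not be checked here.

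The promoters of 2 class II chain genes are shown because both hold the CCAAT box (CCAAT) that forms the Y box of class II promoters. The sequences are from RefSeq (GRCm38.p6), 110 bases before to 30 after the annotated start, read 5′ to 3′ on the strand of the gene. H2-Aa lies at chr17:34287794-34287933 on the minus strand and H2-Eb1 at chr17:34305757-34305896 on the plus strand. Capitals mark CCAAT or its reverse complement and, in H2-Aa, TGACGT on both strands, which overlap. Over the windows of 300 bases around the start, CCAAT on either strand stood in 12 of 17 genes of the class II list (70.6%) and in 41.1% of all 27025 genes with a window. Its share was 38.8% among all genes called higher and 45.8% among all genes called lower, beside 41.6% of all tested genes with a window. A match of letters is a description and not a site shown to be bound.
H2-Aa: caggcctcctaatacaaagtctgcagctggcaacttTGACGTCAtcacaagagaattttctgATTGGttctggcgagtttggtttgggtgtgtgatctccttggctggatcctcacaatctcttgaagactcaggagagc
H2-Eb1: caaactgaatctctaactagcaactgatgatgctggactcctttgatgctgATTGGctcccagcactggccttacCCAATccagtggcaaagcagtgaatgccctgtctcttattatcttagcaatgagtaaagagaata

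Genes of class I presentation and cross-presentation moved less: 8 of 28 rose (28.6%) and 3 fell (10.7%), with a median of 0.26. The shares of all genes were 8.30% and 12.8%. Without CD24 DC array 1, 6 fell. Wdfy4, which cDC1s need for cross-presentation, was 10.88, 10.84 and 10.79 in CD24 DCs, against 7.96, 7.79 and 7.86 in CDPs (2.97 ± 0.20, adjusted p = 2.93e-07). Rab43, a GTPase with a role in cross-presentation, rose by 3.49 ± 0.21. Nlrc5, the transactivator of class I genes, rose by 1.85 ± 0.21. The peptide transporter gene Tap1 rose by 0.98 ± 0.19, Tapbpl, a peptide editor, by 0.81 ± 0.18 and Psmb9, an immunoproteasome subunit, by 0.70 ± 0.23. The 3 that fell were Rab27a (-2.63 ± 0.29) and the NADPH oxidase genes Cybb (-1.77 ± 0.54) and Rac2 (-1.51 ± 0.23). The calls of Psmb9 and Cybb were each lost when some single arrays were left out, among them CD24 DC array 3 and CDP arrays 2 and 3 for both.

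Of 15 genes of endosomal Toll-like receptors and their trafficking, 6 rose (40%) and 1 fell (6.7%), or 3 fell with the replicate block. The shares of all genes were 8.30% higher and 12.8% lower. Tlr3 was 10.40, 10.58 and 9.74 in CD24 DCs, against 3.40, 4.08 and 4.03 in CDPs (6.40 ± 0.28, adjusted p = 8.72e-09). Tlr11 and Tlr12 sense profilin of protozoa, and Tlr11 rose by 5.33 ± 0.37 and Tlr12 by 2.64 ± 0.24. Tlr13, which senses bacterial ribosomal RNA, rose by 4.01 ± 0.53, Tlr9, the receptor for unmethylated DNA, by 1.12 ± 0.23 and Ticam1, the adaptor of Tlr3, by 0.95 ± 0.23. Tlr7, the receptor for single-stranded RNA, was 3.69, 3.87 and 3.86 in CD24 DCs, against 5.69, 5.43 and 5.16 in CDPs (-1.62 ± 0.29, adjusted p = 0.00122). No CD24 DC array reached the lowest CDP array for Tlr7. Among 12 genes of surface Toll-like receptors and their adaptors, 2 rose (16.7%) and 3 fell (25%). Those that rose were Cd180 (1.82 ± 0.18) and Cd14 (1.00 ± 0.28). Those that fell were Lbp (-2.79 ± 0.33), Ticam2 (-2.02 ± 0.27) and Ly86 (-0.81 ± 0.26). The calls of Cd14 and Ly86 were lost without some single arrays, among them CD24 DC arrays 2 and 3.

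Of 37 costimulatory and checkpoint genes, 20 rose and 3 fell, with a median of 0.82. Cd86, which costimulates T cells through CD28, was 10.65, 11.07 and 10.83 in CD24 DCs, against 4.91, 5.75 and 4.83 in CDPs (5.69 ± 0.28, adjusted p = 2.38e-08). Havcr2, the TIM-3 gene, rose by 5.04 ± 0.32, Cd83 by 4.55 ± 0.30 and Cd80 by 4.46 ± 0.33. The chains of interleukin 12 went in opposite directions. Il12b, the p40 chain, was 8.76, 9.08 and 9.34 in CD24 DCs, against 4.70, 5.19 and 4.74 in CDPs (4.19 ± 0.21, adjusted p = 2.41e-08). Il12a, the p35 chain, was 4.16, 4.54 and 5.06 in CD24 DCs, against 8.55, 7.98 and 7.77 in CDPs (-3.52 ± 0.32, adjusted p = 5.1e-06). The groups did not overlap for either chain. The other 2 genes that fell were Lgals9, which encodes galectin 9 (-2.43 ± 0.20), and Sh2d1b1, an adaptor of SLAM receptors (-1.29 ± 0.22).

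Receptors for migration and cytokines moved in both directions. Of 33 chemokine receptor and trafficking genes, 11 rose (33.3%) and 6 fell (18.2%), beside 8.30% and 12.8% of all genes. Besides Xcr1, the largest increases were in P2ry14, a receptor for UDP-glucose (4.80 ± 0.39), Itgae, the CD103 integrin chain (3.44 ± 0.30), Ccr7, the receptor for homing to lymph nodes (3.36 ± 0.43), and Itga8 (3.27 ± 0.32). The decreases were in S1pr3 (-3.49 ± 0.33), Ccr2, the receptor of monocytes leaving marrow (-2.46 ± 0.32), Itgam, Cx3cr1, S1pr4 (-0.90 ± 0.23) and Cxcr4, the receptor that holds cells in marrow (-0.53 ± 0.17). The call of Cxcr4 was lost in leave-one-out fits without CD24 DC array 1 or 2 or CDP array 1, among others. Of 29 cytokine receptor genes outside the gates, 9 rose (31%) and 6 fell (20.7%), with a median of 0.05. Il13ra1 (2.49 ± 0.23), Il10ra (2.35 ± 0.23) and Ifngr1 (2.11 ± 0.22) rose most, and Il1r1 (-2.34 ± 0.30), Csf3r, the G-CSF receptor (-1.88 ± 0.32), Il17ra (-1.57 ± 0.18) and Ifnar2 (-1.43 ± 0.24) fell most.

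The 3 largest decreases were in Mpo, Ctsg and F13a1. Mpo, the myeloperoxidase of primary granules, was 4.91, 5.89 and 6.57 on the CD24 DC arrays, against 12.16, 12.37 and 12.45 on the CDP arrays (-6.54 ± 0.38, 93-fold lower, adjusted p = 1.03e-07). Ctsg, which encodes the granule protease cathepsin G, was 4.62, 5.42 and 5.28 in CD24 DCs, against 11.51, 11.31 and 11.59 in CDPs (-6.36 ± 0.27, adjusted p = 6.73e-09). F13a1, the coagulation factor XIII chain of monocytes and their precursors, was 4.07, 4.51 and 4.76 in CD24 DCs, against 10.41, 10.82 and 10.81 in CDPs (75.1-fold lower). The 3 genes lay more than 5 log2 units apart between the closest arrays of the groups. Cd34, a surface protein of stem and progenitor cells, was 5.11, 5.38 and 5.68 in CD24 DCs, against 10.41, 10.16 and 10.26 in CDPs (-4.89 ± 0.28). Sox4, a progenitor transcription factor, fell by 4.88 ± 0.40. Of 29 progenitor genes outside the gates, 19 fell and none rose, with a median of -1.66.

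The 15 largest decreases also held the granule genes Elane and Prtn3 and 8 genes of other kinds. Gria3, a glutamate receptor subunit, fell by 5.87 ± 0.32 and Emb, the cell adhesion protein embigin, by 5.32 ± 0.32. Ly6c2, a surface protein of monocytes with near-identical copies, fell by 4.94 ± 0.35. Bex6 fell by 4.78 ± 0.40, Stk26, a kinase, by 4.65 ± 0.18, Atp2b4, a calcium pump, by 4.52 ± 0.29 and Rab44 by 4.35 ± 0.28. Dntt, the terminal transferase of early lymphoid cells, was 3.71, 3.91 and 4.25 in CD24 DCs, against 9.64, 8.72 and 7.57 in CDPs (-4.69 ± 0.38). The CDP arrays spread over more than 2 log2 units for Dntt, and each lay above every CD24 DC array.

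Of 18 neutrophil primary granule genes, 12 fell and 1 rose, with a median of -1.73 against 12.8% of all genes called lower. Elane, the neutrophil elastase gene, was 4.41, 5.20 and 5.62 in CD24 DCs, against 9.30, 9.64 and 10.52 in CDPs (-4.74 ± 0.54). Prtn3, proteinase 3, was 5.19, 4.69 and 4.99 in CD24 DCs, against 9.75, 9.57 and 9.74 in CDPs (-4.73 ± 0.29). Cst7, the protease inhibitor cystatin F, fell by 3.63 ± 0.26 and Serpinb1a by 3.45 ± 0.41. Srgn, the proteoglycan serglycin, was the 1 that rose (0.96 ± 0.21). Over 16 neutrophil markers, 6 fell and none rose (1 with the replicate block), and the mean level was 4.75, 6.06 and 5.22 on the CD24 DC arrays, against 6.82, 7.86 and 7.84 on the CDP arrays. S100a8, a gene of mature neutrophils, was 4.61, 9.52 and 4.52 in CD24 DCs, against 6.86, 10.25 and 10.26 in CDPs. CD24 DC array 2 was thus far above the other CD24 DC arrays for S100a8, and CDP array 1 below the other CDP arrays. Ly6g was 3.83, 3.80 and 3.60 in CD24 DCs, against 4.23, 3.87 and 3.90 in CDPs. The part of neutrophil RNA in the granule genes was not tested.

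The promoters of Prtn3 and Elane are shown because these neighbouring genes fell together and both hold GAGGAAG, the core letters of the PU.1 motif, before the start. They come from RefSeq (GRCm38.p6) and run from 110 bases before to 30 after the start. Prtn3 lies at chr10:79879557-79879696 and Elane at chr10:79886202-79886341, both on the plus strand. Capitals mark GAGGAAG. On either strand these letters stood in 6 of 14 granule genes with a window (42.9%) and in 15.4% of all genes. Their share was 21.2% among all genes called higher and 14.5% among all genes called lower, beside 14.9% of all tested genes with a window.
Prtn3: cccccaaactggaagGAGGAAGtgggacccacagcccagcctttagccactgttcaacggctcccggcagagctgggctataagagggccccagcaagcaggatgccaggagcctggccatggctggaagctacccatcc
Elane: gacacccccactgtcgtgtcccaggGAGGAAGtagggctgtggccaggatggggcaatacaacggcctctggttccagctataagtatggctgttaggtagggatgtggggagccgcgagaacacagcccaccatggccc

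Nearly all genes of mitosis fell. Of 63 mitosis genes, 62 fell and 1 rose, with a median of -2.26. Ttk, the kinase MPS1 of the spindle checkpoint, was 5.75, 5.64 and 4.77 in CD24 DCs, against 8.13, 8.30 and 8.32 in CDPs (-2.86 ± 0.25, adjusted p = 3.42e-06). Hmmr, a spindle protein, was 5.84, 5.61 and 4.58 in CD24 DCs, against 8.19, 8.14 and 8.19 in CDPs (-2.83 ± 0.27). CD24 DC array 3 was the lowest for both, and no CD24 DC array came within 2 log2 units of a CDP array. Anln and Nuf2, of the contractile ring and the kinetochore, each fell by 2.97 (SE 0.30 and 0.38). Mki67, the Ki-67 proliferation marker, was 8.60, 8.97 and 8.02 in CD24 DCs, against 10.22, 10.77 and 10.61 in CDPs (-2.0 ± 0.25, adjusted p = 5.67e-05). The 1 gene of the list that rose was Pttg1, securin (0.58 ± 0.17), and it lost its call in 9 of the 17 alternatives, among them each fit without a single CDP array or without CD24 DC array 1 or 2.

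Of 50 DNA replication genes, 47 fell and none rose, with a median of -1.63. Rrm1, a subunit of ribonucleotide reductase, fell by 2.69 ± 0.26. Mcm3, a subunit of the replicative helicase, was 7.59, 6.86 and 6.68 in CD24 DCs, against 9.04, 9.29 and 9.28 in CDPs (-2.16 ± 0.22, adjusted p = 1.22e-05). Prim1, a primase subunit, fell by 2.32 ± 0.29 and Pole, a polymerase subunit, by 2.24 ± 0.19. With the interquartile range as a covariate, 32 of the 50 were called lower and none higher. The mean over the list was 7.08, 6.77 and 6.26 on the CD24 DC arrays, against 8.36, 8.23 and 8.29 on the CDP arrays.

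Regulators of G1 were divided, with 4 of 24 higher and 12 lower. Cdk6 was 7.16, 6.52 and 5.61 in CD24 DCs, against 10.55, 10.80 and 10.64 in CDPs (-4.24 ± 0.32, adjusted p = 8.16e-07). Its partner Ccnd2, cyclin D2, fell by 3.69 ± 0.33, and E2f8 (-2.56 ± 0.31) and Cdk4 (-2.0 ± 0.25) fell too. Ccnd1, cyclin D1, went the other way (0.88 ± 0.27), with a call that was lost in several leave-one-out fits. The antiproliferative genes Btg2 (2.64 ± 0.35) and Btg1 (2.10 ± 0.22) rose, as did the inhibitor gene Cdkn1b (0.71 ± 0.17), whereas the inhibitor Cdkn2c fell by 1.55 ± 0.18. Among chromatin modifiers, 18 of 38 fell and 2 rose. Dnmt1, which copies DNA methylation at replication, fell by 1.85 ± 0.21. Cbx5, which encodes a heterochromatin protein (-2.42 ± 0.36), and Suz12, a Polycomb subunit (-1.45 ± 0.22), fell as well. Kdm6b, a histone demethylase induced by stimuli, rose by 2.64 ± 0.35 and Jarid2 by 1.22 ± 0.18.

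The promoters of Ttk, Hmmr and Mcm3 are shown because cell cycle genes share short promoter elements. The CHR element (TTTGAA) and CCAAT boxes are known from late cell cycle promoters, and E2F letters (TTCCCGC) from genes of S phase. The stretches run from 110 bases before to 30 after the start, from RefSeq (GRCm38.p6). Ttk lies at chr9:83834579-83834718 on the plus strand, Hmmr at chr11:40733408-40733547 on the minus strand and Mcm3 at chr1:20820283-20820422 on the minus strand. Capitals mark, on either strand, TTTGAA and CCAAT in Ttk and Hmmr and TTCCCGC and CCAAT in Mcm3.
Ttk: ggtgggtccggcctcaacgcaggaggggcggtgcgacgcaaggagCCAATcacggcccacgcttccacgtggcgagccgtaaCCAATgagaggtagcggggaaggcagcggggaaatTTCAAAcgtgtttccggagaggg
Hmmr: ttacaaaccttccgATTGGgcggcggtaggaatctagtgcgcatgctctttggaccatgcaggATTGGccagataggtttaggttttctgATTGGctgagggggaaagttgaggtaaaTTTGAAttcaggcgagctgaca
Mcm3: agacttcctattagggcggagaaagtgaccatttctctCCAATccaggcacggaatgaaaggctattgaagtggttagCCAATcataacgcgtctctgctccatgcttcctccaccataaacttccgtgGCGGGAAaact

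Counted over genes with a window, TTTGAA stood in 36 of 50 mitosis genes (72%), 7 of 43 DNA replication genes (16.3%) and 20.2% of all genes. Its share among all genes called lower was 19.3%, beside 17.8% of all tested genes with a window. CCAAT stood in 35 of 50 mitosis genes (70%) and 28 of 43 DNA replication genes (65.1%), against 41.1% of all genes. TTCCCGC stood in 2 of 50 mitosis genes (4%) and 15 of 43 DNA replication genes (34.9%). Its share was 5.29% of all genes, 6.9% of tested genes and 13.3% of genes called lower. The variant TTGGCGC stood in 13 of 43 DNA replication genes (30.2%), against 2.85% of all genes. Genes had 1.22 windows on average because some have several starts. These shares describe letters near annotated starts and were not tested.

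Genes of protein synthesis and respiration were lower with smaller differences that depended on how the spread of values was handled. Of 52 ribosome biogenesis genes, 29 fell and none rose, with a median of -0.77. Dkc1, the pseudouridine synthase dyskerin, was 7.16, 6.50 and 5.77 in CD24 DCs, against 8.56, 8.56 and 8.67 in CDPs (-2.12 ± 0.28). Of 44 oxidative phosphorylation genes, 14 fell, and of 41 mitochondrial ribosomal protein genes, 16 fell. Sdhc, a subunit of succinate dehydrogenase, was 7.79, 6.89 and 6.53 in CD24 DCs, against 8.41, 8.17 and 8.56 in CDPs (-1.31 ± 0.33), and Mrps22 fell by 1.61 ± 0.23. CD24 DC array 3 was the lowest for Dkc1 and for Sdhc, as it was for the mean over oxidative phosphorylation genes (8.66, 8.37 and 7.98 in CD24 DCs, against 9.01, 8.76 and 8.84 in CDPs). With the interquartile range as a covariate, 13 ribosome biogenesis genes, 0 oxidative phosphorylation genes and 1 mitochondrial ribosomal protein gene were called lower. The call of Sdhc was lost without CD24 DC array 3. In the fits that each left out 1 of the 6 arrays, the oxidative phosphorylation genes called lower numbered 4 to 6, except 21 without CD24 DC array 1. The mitochondrial ribosomal protein genes numbered 6 to 11 in the same fits, except 23. Histone genes fell at 10 of 13, and at 4 to 7 of them in the fits without 1 array, except 11 without CD24 DC array 1. Their near-identical copies make single values uncertain.

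**Figure D3:**
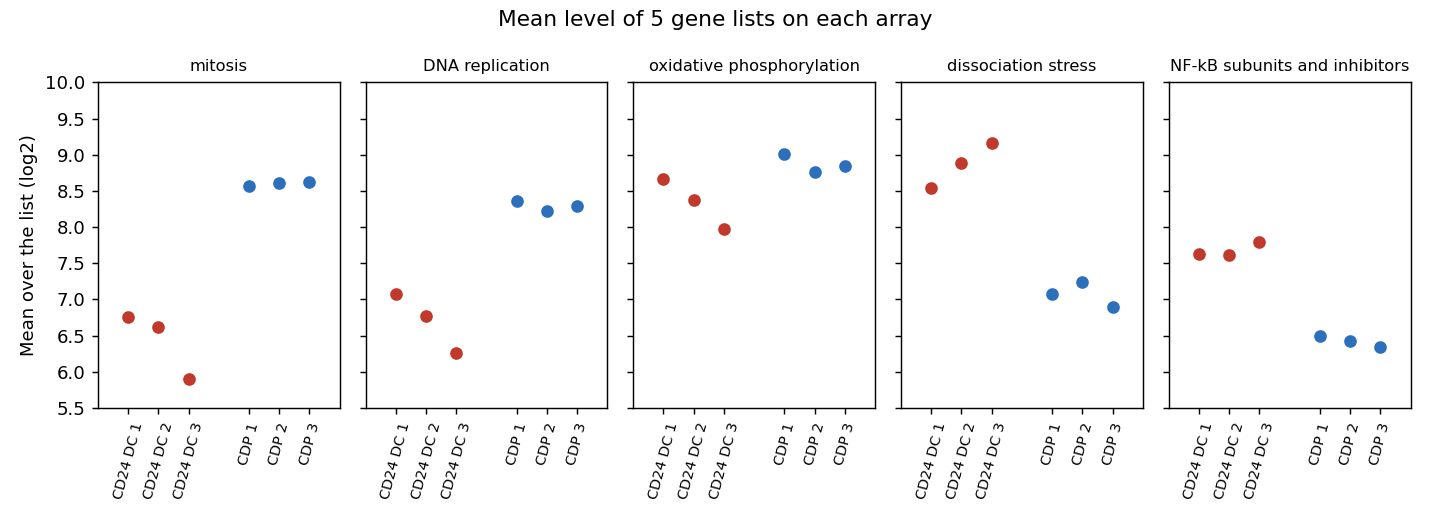
Mean level (log2) over each of 5 gene lists on each array, CD24 DC arrays left of CDP arrays in every panel. Means of mitosis genes are 6.76, 6.62 and 5.91 on CD24 DC arrays, all below the CDP arrays at 8.57 to 8.63. For oxidative phosphorylation the gap is smaller (7.98 to 8.66 against 8.76 to 9.01), and dissociation stress and NF-kB lists are higher on every CD24 DC array.

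Of 22 glycolysis genes, 4 rose and 8 fell, or 5 fell without CDP array 1. Pfkfb3, which makes the activator of phosphofructokinase, rose by 2.24 ± 0.19 and Pfkp, the platelet isoform of phosphofructokinase, by 1.81 ± 0.21, whereas Pfkm, the muscle isoform, fell by 0.99 ± 0.24. Tpi1 (-1.86 ± 0.30), Pgam1 (-1.24 ± 0.22) and Pkm (-0.76 ± 0.17) fell, as did Slc16a1, a lactate carrier (-1.40 ± 0.19). Of 30 genes of cholesterol and fatty acid synthesis, 4 rose (13.3%) and 6 fell (20%), shares not far from the 8.30% and 12.8% of all genes. Without CDP array 2 the number that rose was 2, and without CD24 DC array 3 or CDP array 1 the number that fell was 3. The desaturase Fads2 fell by 2.32 ± 0.20 and the elongase Elovl6 by 1.42 ± 0.21, and the desaturase Scd1 rose by 1.52 ± 0.28.

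Lysosomal genes were divided, with 12 of 45 higher (26.7%) and 8 lower (17.8%), beside 8.30% and 12.8% of all genes. Plbd1, a lysosomal phospholipase-like protein, was 12.12, 12.14 and 12.18 in CD24 DCs, against 5.64, 6.27 and 6.22 in CDPs. Naaa, an acid amidase, rose by 5.24 ± 0.27, Ppt1, a thioesterase, by 2.71 ± 0.28 and Psap, the prosaposin gene, by 1.45 ± 0.16. Ctsd, the protease cathepsin D, was 5.76, 6.77 and 5.88 in CD24 DCs, against 9.19, 9.10 and 9.01 in CDPs (-2.97 ± 0.24, adjusted p = 1.51e-06). Lamp1, the membrane protein of lysosomes, fell by 1.33 ± 0.18. Of 40 Rab GTPase genes, 9 rose (22.5%) and 7 fell (17.5%, not far from the share of all genes). Rab7b (3.85 ± 0.26), Rab30 (3.74 ± 0.26) and Rab43 rose most, and Rab44, Rab27a and Rab37 (-1.70 ± 0.32) fell most. C-type lectin genes numbered 6 higher and 6 lower of 24, or 25% each. Ly75, the uptake receptor DEC-205, was at 3.76 ± 0.28 and Cd207, langerin, at 2.00 ± 0.24. Of 34 genes of the cytoskeleton and dendrites, 16 rose and 3 fell (5 without CD24 DC array 1 or with the replicate block), with Rgs1, a brake on G protein signals, at 5.09 ± 0.38 and the microtubule destabiliser Stmn1 at -2.69 ± 0.28.

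Survival genes of the Bcl2 family moved in both directions. Bcl2 was 6.74, 6.42 and 5.40 in CD24 DCs, against 9.98, 10.28 and 10.08 in CDPs (-3.93 ± 0.31, adjusted p = 1.24e-06). Bcl2a1a, an antiapoptotic member of a family of near-identical copies, was 10.64, 10.40 and 10.32 in CD24 DCs, against 4.77, 4.27 and 5.08 in CDPs (5.75 ± 0.32, adjusted p = 7.29e-08). Each group thus had 1 of the 2 genes high on all its arrays. The proapoptotic genes Pmaip1 (2.14 ± 0.27) and Bcl2l11 (1.01 ± 0.25) rose. In all, 4 of 16 family members rose (25%) and 2 fell (12.5%), beside 8.30% and 12.8% of all genes. The share that fell was thus near that of all genes. Interferon-stimulated genes were called higher at 10 of 37 (27%) and lower at 3 (8.1%, below the 12.8% of all genes). With the replicate block 5 were lower, and with arrays centred on their medians 6 were higher. Irf7 (2.13 ± 0.27) and Mx1 (2.08 ± 0.24) rose, and the guanylate-binding protein genes Gbp3 (-2.38 ± 0.27) and Gbp7 (-2.17 ± 0.36) fell.

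Genes known to respond to tissue dissociation and to stimulation were higher on the CD24 DC arrays. Of 27 dissociation stress genes, 18 rose and 1 fell, with a median of 2.19. Nr4a3, an orphan nuclear receptor induced rapidly by stimuli, was 9.95, 11.76 and 12.03 in CD24 DCs, against 4.96, 4.77 and 4.76 in CDPs (6.42 ± 0.43, adjusted p = 2.93e-07). Nr4a1, its relative, was 10.64, 11.88 and 12.09 in CD24 DCs, against 6.41, 6.38 and 6.12 in CDPs (5.23 ± 0.33). CD24 DC array 1 was the lowest of its group for both, by more than 1 log2 unit. Egr2 was 7.82, 9.39 and 9.82 in CD24 DCs, against 4.84, 5.05 and 4.83 in CDPs, again with array 1 the lowest of the CD24 DC arrays. Atf3 rose by 4.22 ± 0.39, Egr3 by 3.45 ± 0.42, Fosb by 2.76 ± 0.26 and Hspa1b, a heat-shock gene with a near-identical copy, by 3.11 ± 0.44. Cd69, an early activation antigen on lymphocytes, was the 1 gene of the list that fell (-2.61 ± 0.35).

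Of 21 genes of NF-kB subunits, inhibitors and their pathway, 14 rose and 1 fell, with a median of 1.62. Traf1 (3.76 ± 0.28), Tnfaip3, which encodes the inhibitor A20 (2.67 ± 0.26), Nfkbie (2.29 ± 0.27), Cd40 (2.25 ± 0.24), Rel (2.04 ± 0.30) and Nfkb2 (1.97 ± 0.22) rose most, and Ikbke fell by 1.28 ± 0.23. In the other populations, Nr4a3 was 12.04 and 12.16 in spleen CD172a DCs and 4.46 and 5.43 in marrow pre-CD8 cells. Traf1 was 9.38 and 9.85 in CD172a DCs and 5.69 and 6.65 in pre-CD8 cells. Both genes were thus high on all arrays from spleen and low on all of these arrays from marrow. Organ, release method and maturity divide the 4 populations in the same way here, and their parts cannot be told apart.

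A stretch of the Nr4a3 promoter is shown because it holds 3 copies of TGACGT, the core of the cAMP response element, known from genes induced by stimuli. It is from RefSeq (GRCm38.p6), chr4:48045065-48045204 on the plus strand, 140 bases from position -240 relative to the start, and capitals mark TGACGT. These letters, on either strand, stood in 7 of 22 stress genes with a window (31.8%) and in 8.37% of all genes. Their share was 9.7% among all genes called higher and 13.4% among all genes called lower, beside 9.84% of all tested genes with a window.
Nr4a3: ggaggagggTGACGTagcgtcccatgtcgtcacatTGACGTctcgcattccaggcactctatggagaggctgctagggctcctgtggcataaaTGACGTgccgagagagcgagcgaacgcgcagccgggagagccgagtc

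Markers of other cells were measured for what the gates could have let through. Of 17 plasmacytoid DC genes, 5 rose, among them Ccr9 (1.42 ± 0.27) and Spib (1.02 ± 0.20), and 7 fell, among them Ly6c2, Dntt and Atp1b1 (-2.20 ± 0.21). Siglech, the defining marker, was 6.22, 5.16 and 5.55 in CD24 DCs, against 6.42, 6.39 and 5.70 in CDPs, and the mean over the list was 5.56 to 5.74 in CD24 DCs, against 6.33 to 6.61 in CDPs. Of 23 monocyte and macrophage genes outside the gates, 10 rose and 6 fell, with list means of 6.10 to 6.21 in CD24 DCs, against 6.17 to 6.42 in CDPs. Those that rose included genes known from red pulp macrophages, Hmox1 (7.94, 7.72 and 8.37 in CD24 DCs, against 4.74, 4.84 and 4.56 in CDPs), Spic (2.60 ± 0.19) and Vcam1 (1.90 ± 0.28). Those that fell included F13a1 (-6.23), Ly6c2 (-4.94), Ms4a6c, Ccr2 and Csf3r. With the interquartile range as a covariate 5 monocyte and macrophage genes rose, and without CD24 DC array 2 or CDP array 1 there were 6. B cell genes numbered 2 higher and 2 lower of 12. Ms4a1, which encodes CD20, was 8.42, 7.94 and 7.95 in CD24 DCs, against 4.10, 4.19 and 4.04 in CDPs (4.0 ± 0.21), while Cd79a, a defining B cell gene, was 4.84, 4.28 and 4.04 in CD24 DCs, against 4.66, 3.96 and 4.02 in CDPs. Of T cell genes 1 of 9 rose (Cd5, 1.28 ± 0.23), and of NK cell genes 1 of 10 rose and 1 fell. Megakaryocyte and platelet genes were higher at 2 of 6 (Gp9, 1.52 ± 0.20, and Vwf, 1.07 ± 0.18), and Mcpt8, a basophil protease, was the 1 of 11 basophil, mast cell and eosinophil genes that fell (-3.30 ± 0.50), or 1 of 2 with the replicate block. The B, T and NK cell lists are short. The shares higher were 16.7%, 11.1% and 10%, beside 8.30% of all genes. The shares lower were 16.7%, 0% and 10%, beside 12.8% of all genes. The part of other cells in these values was not tested.

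The pre-CD8 progenitor of the marrow is placed between CDPs and CD24 DCs in the lineage, and its arrays show which differences stood there already. The tests of CD24 DCs against CDPs and against pre-CD8 cells share the CD24 DC arrays. CD24 DCs and pre-CD8 cells differed at 1399 genes (6.31% of those tested), 587 higher in CD24 DCs (2.65%) and 812 lower (3.66%). A first set of genes was already high in pre-CD8 cells. Tlr3 was 9.52 and 10.44 on the pre-CD8 arrays (CD24 DC minus pre-CD8 0.26, adjusted p = 0.74), Id2 was 10.06 and 10.14 (-0.08, adjusted p = 0.88) and Batf3 was 9.77 and 9.24 (-0.16, adjusted p = 0.89). For these a difference between CD24 DCs and pre-CD8 cells was not detectable with these arrays, and equal levels are not shown. Xcr1 lay in between, at 6.09 and 7.83 on the pre-CD8 arrays (3.14, adjusted p = 0.00023), as did Cd36, at 6.36 and 7.84 (3.00, adjusted p = 9.3e-05). Further genes were high in CD24 DCs, with pre-CD8 arrays closer to the CDP than to the CD24 DC arrays. Cadm1 was 5.17 and 6.57 on the pre-CD8 arrays (3.89, adjusted p = 1.7e-05), Cd8a was 5.01 and 6.34 (4.68), and Dnase1l3 was 3.83 and 5.20 (5.82).

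Decreases also differed in how far they stood in pre-CD8 cells. Mki67 was 10.70 and 11.02 on the pre-CD8 arrays, overlapping the CDP arrays, and CD24 DCs lay below them by 2.33 (adjusted p = 0.00014). Ttk was 8.28 and 8.42 in pre-CD8 cells (CD24 DC minus pre-CD8 -2.96). Mcm3 was 7.82 and 7.75 in pre-CD8 cells, and its difference of -0.74 did not pass (adjusted p = 0.11). Mpo was 9.06 and 10.08 in pre-CD8 cells (-3.78), between its levels in CD24 DCs and CDPs. Cd34 was 7.46 and 6.75 (-1.72) and Cdk6 was 7.83 and 7.74 (-1.36, adjusted p = 0.037, or 0.067 with the replicate block). Cd226, a receptor of NK and T cells, had its peak in pre-CD8 cells: it was 5.61, 5.43 and 4.54 in CD24 DCs, against 9.0 and 8.64 in pre-CD8 cells (-3.62, adjusted p = 7.9e-06), while CDPs had 4.04, 4.24 and 4.01. Without pre-CD8 array 1 the genes called between CD24 DCs and pre-CD8 cells numbered 571, and without all arrays numbered 1 they numbered 753.

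**Figure D4:**
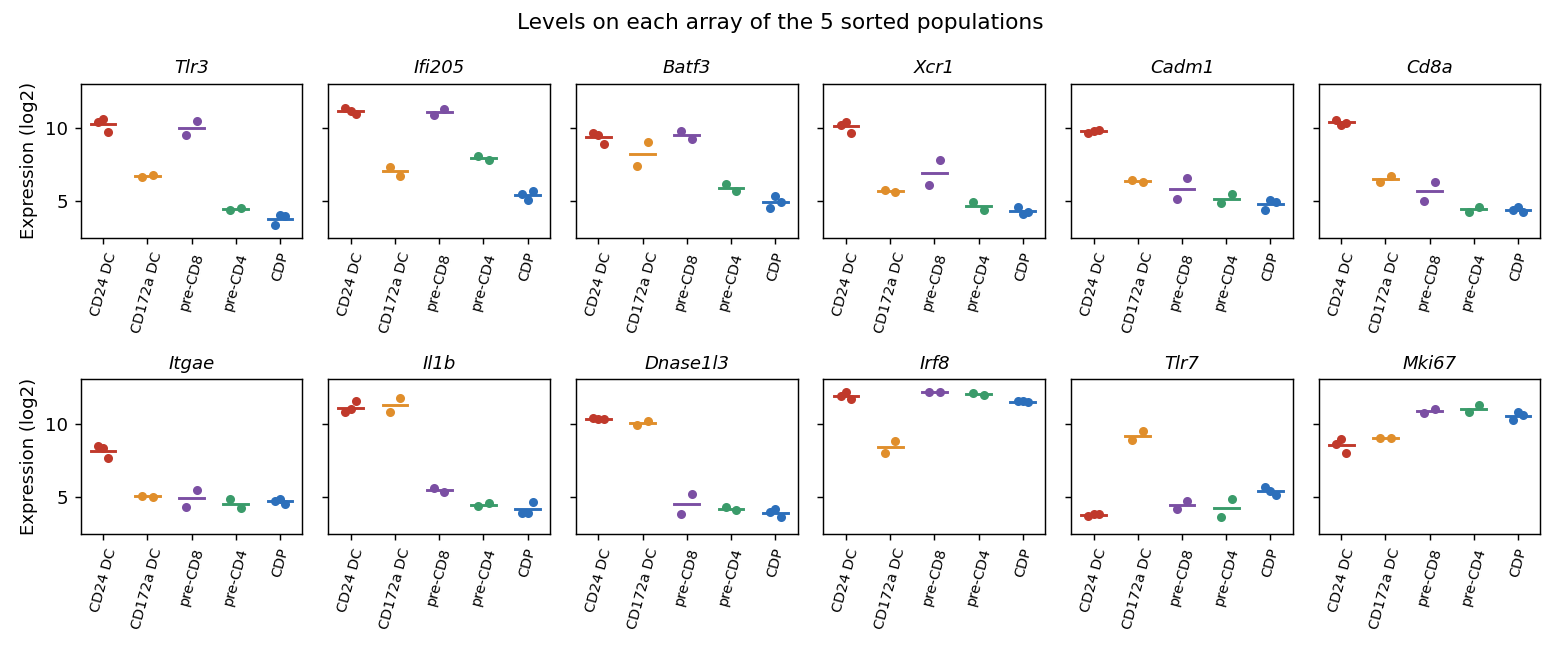
Levels (log2) of 12 genes on each array of the 5 sorted populations, in the order CD24 DC, CD172a DC, pre-CD8, pre-CD4 and CDP; each point is 1 array and bars mark means. Tlr3, Ifi205 and Batf3 are high in both CD24 DC and pre-CD8, Cadm1, Cd8a and Itgae are highest in CD24 DC, and Il1b and Dnase1l3 are high in both spleen populations. Irf8 is lowest in CD172a DC (7.97 and 8.80) and Tlr7 is highest there (8.87 and 9.47).

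The CD172a DCs of the same organ show which differences CD24 DCs shared with another mature spleen population. These tests again use the CD24 DC arrays. CD24 DCs and CD172a DCs differed at 1239 genes (5.59%), 713 higher in CD24 DCs (3.21%) and 526 lower (2.37%). Without CD172a DC array 1 the called genes numbered 556, and 508 without all arrays numbered 1. Cd86 was 10.89 and 11.03 on the CD172a DC arrays (CD24 DC minus CD172a DC -0.11, adjusted p = 0.94), Slamf7 was 11.22 and 11.26 (0.13, adjusted p = 0.89) and Adam23 was 9.82 and 10.58 (0.04, adjusted p = 0.98). For these genes no difference between the spleen populations was detected, with 3 and 2 arrays. Genes that were higher in CD24 DCs included Xcr1 (5.80 and 5.62 on the CD172a DC arrays, difference 4.39), Gpr141b (6.31 and 6.51, difference 4.81), P3h2, a collagen prolyl hydroxylase (5.17 and 5.15, difference 4.17) and Rab7b (5.41 and 4.99, difference 4.11). Irf8, which did not pass against CDPs, was 7.97 and 8.80 in CD172a DCs, and CD24 DCs were higher by 3.51 (adjusted p = 2.4e-06). Genes that were lower in CD24 DCs included Ptgs2, the cyclooxygenase COX-2, which was 6.42, 6.29 and 6.40 in CD24 DCs, against 11.28 and 11.41 in CD172a DCs (-4.97, adjusted p = 1.5e-07). Fabp5, a fatty acid binding protein, was 7.03, 7.72 and 6.93 in CD24 DCs, against 11.16 and 10.96 in CD172a DCs (-3.84), with 10.73, 10.64 and 10.63 in CDPs.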

How the data were processed

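The table deposited by the authors held a log2 value for each probe set on each array, and no arrays were pooled. How background, summarization and normalization were handled for these log2 values is not given in the sources used here. Per the labels' protocols, amplification used the Ovation Pico WTA kit of NuGen and the label was biotin. Of 35145 probe sets, 23525 had 1 gene symbol, 1810 several and 9810 none, and 22184 genes were tested. For the 1082 genes with several probe sets, that with the highest mean was taken.

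Groups came from the array titles. All 12 arrays entered 1 fit in limma 3.58.1 (R 4.3.3, lmFit and eBayes) with a mean for each of 5 groups, without a replicate block (residual degrees of freedom 7, prior 6.18). P-values are two-sided, Benjamini-Hochberg adjusted over 22184 genes, with a threshold of 0.05. Adjusted p-values in the text are from this fit, except where the replicate block is named. The median SE of a difference between CD24 DCs and CDPs was 0.218. The number of arrays limits the precision. Tests were checked on simulated data, drawn as independent normal values for each gene. These did not copy the unequal interquartile ranges of the arrays, so they cannot check the effect of those ranges. The alternatives were every probe set, a replicate block, genes below the 40th percentile left out, the interquartile range as a covariate, median centring, arrays of the compared groups alone, the mean of probe sets, quantile normalization, a least log2 change of 0.5, an intensity trend, each array left out, and, chosen after seeing the data, all arrays numbered 1 left out.

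The rule for named genes took the 15 largest called, non-overlapping differences in each direction, a panel of 15 genes, up to 6 called genes in each direction per list, the 9 sort genes, and the 6 largest in each direction against CD172a DCs and pre-CD8 cells. Values of Siglech, Cd79a, Ly6g, S100a8, H2-Oa, H2-Ob, H2-DMb2 and H2-DMa were outside it or chosen after their values were seen, as were microRNA genes. The members and lists were chosen with earlier results of these data known. Deviations from group means correlated between CD24 DC and CDP arrays of the same number at r = 0.374, 0.113 and 0.108, and between arrays of different number at r = -0.354 to 0.284. All 3 same-number values exceed 0.1, the limit set for treating numbers as pairs. The value of 0.284, for CD24 DC array 3 and CDP array 2, exceeds it too. The labels do not say what a number marks, so the block was kept as an alternative and left out of the main fit.

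Promoter windows (250 bases before to 50 after each start) and microRNAs were RefSeq sequences of GRCm38.p6, searched for 12 motifs on both strands. These were the cAMP response element (TGACGT), the box CCAAT, CHR (TTTGAA), E2F (TTCCCGC) and its variant (TTGGCGC), AP-1 (TGACTCA), PU.1 core (GAGGAAG), E box (CANNTG), CEBP (TTGCNNAA), and the composites of ETS with IRF, of AP-1 with IRF and of repeated IRF letters. Matches to AP-1, E box, CEBP and the 3 composites are not described in the text. Python 3.11.15, pandas 2.3.3 and matplotlib 3.10.9 made the tables and figures.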

Additional observations from a re-analysis of the deposited data

Results flagged for a closer look

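Genes with opposite calls against CDPs in the spleen populations were singled out. Sirpa, the gene of the CD172a gate, was -2.27 in CD24 DCs and 1.23 in CD172a DCs, and CD24 DCs minus CD172a DCs was -3.50 (limma, adjusted p = 2.43e-06). Tlr7 was -1.62 in CD24 DCs and 3.74 in CD172a DCs, a difference of -5.36 (adjusted p = 1.19e-06). Itgam, an integrin chain of myeloid cells, was -1.74 and 1.32, a difference of -3.06 (adjusted p = 0.000212). S100a4, a calcium-binding protein, was -1.31 and 1.52, a difference of -2.83 (adjusted p = 0.000332). Sh2d1b1 was -1.29 and 1.48, a difference of -2.77 (adjusted p = 1.91e-05). The comparisons with CDPs share the CDP arrays, and the differences between the spleen populations were tested directly.

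Probe sets left out of the gene tests also differed between CD24 DCs and CDPs. Of 9810 with no symbol, 438 were higher and 469 lower (9.25% called), with extremes of 4.94 and -7.21. Of 1810 with several symbols, 102 were higher and 219 lower (17.7% called), with extremes of 6.29 and -4.70. No group had the 4 or more arrays that a search for single deviating arrays needs.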

How the results depend on the processing

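Against CDPs, 4690 genes were called in CD24 DCs, and the number moved by over 1.5 times with the interquartile range as a covariate (2830, of which 51.2% were higher) and with a least log2 change of 0.5 (1729). It was 5578 with the number of the array as a replicate block, and leaving out 1 array each gave 3412 to 5902. Against CD172a DCs, 1239 genes were called, with 611 when the fit held arrays of these groups alone, 358 with the least change, 508 without the arrays numbered 1, 1443 with the block and 556 to 1461 leaving out 1 array. Against pre-CD8 cells, 1399 were called, with 683, 511, 753, 1319 and 571 to 1940 in the same settings. The block moved none of these by over 1.5 times and, beside Flt3, changed no call of a named gene against CDPs. Against CD172a DCs and pre-CD8 cells it switched calls of named genes in both directions. Rasgef1b went from a limma adjusted p of 0.2 to 0.032 against CD172a DCs. Tcf4 went from 0.049 to 0.096 against pre-CD8 cells. Of 290 named genes called against CDPs, 10 were tested in 16 alternatives and the others in 17. Of the 290, 208 kept their call in each alternative that tested them, and 82 lost it in 1 or more. The least change ended 75 of these calls and the covariate 55. The 55 leave out H4c9 and Mrps35, whose sign changed with the covariate. Leaving out 1 array ended the call of 37. Most named genes were picked for large differences, so these numbers do not describe all called genes. With the covariate 3 named genes changed sign: Nfil3 (-0.28), H4c9 (0.13) and Mrps35 (0.048), none of them called there. The cause was not tested. With centring on medians, 26.8% of the calls were higher in CD24 DCs in place of 39.3%. The signal above background is unknown for these arrays, so low values carry no statement on detection.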

Other observations

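MicroRNA genes on the array gave a small further set of differences between CD24 DCs and CDPs, chosen after their values were seen. Of 426 tested, 18 were higher in CD24 DCs (4.23%) and 16 lower (3.76%), against 8.30% and 12.8% of all genes, with a median difference of 0.155. With the number of the array as a replicate block, 37 were higher and 20 lower. The 4 tested members of the Mir17 cluster on chromosome 14, which is known to promote proliferation and survival of progenitors, fell together. The cluster has 6 hairpins within 836 bases and is transcribed as 1 precursor, so its members are not independent. Mir17 was 4.93, 6.51 and 5.76 on the CD24 DC arrays, against 8.54, 8.16 and 7.54 on the CDP arrays (-2.35 ± 0.37, SE, limma adjusted p = 0.000401). Mir18 was 4.78, 6.50 and 4.86 in CD24 DCs, against 8.15, 7.96 and 7.65 in CDPs (-2.54 ± 0.39). Mir20a was 4.01, 4.61 and 3.94 in CD24 DCs, against 6.47, 6.48 and 6.51 in CDPs (-2.30 ± 0.20, adjusted p = 3.2e-06). The groups did not overlap for these 3 genes, nor for Mir19a. Mir19a was 1.61, 2.40 and 2.35 in CD24 DCs, against 4.01, 3.47 and 3.61 in CDPs (-1.58 ± 0.25). All of these Mir19a values lay below 4.82, the 40th percentile of the mean levels of genes. CD24 DC array 2 was the highest of its group for all 4.

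The array reads the hairpin or its precursor and not the mature microRNA. The mature sequences are shown (RefSeq, GRCm38.p6, 5′ to 3′) with the seed, bases 2 to 8, in capitals, since the seed decides which transcripts are matched. Those of Mir17 and Mir20a share the seed AAAGUGC, and those of Mir18 and Mir19a have seeds of their own.
mmu-miR-17-5p: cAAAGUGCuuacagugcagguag
mmu-miR-18a-5p: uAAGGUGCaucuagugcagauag
mmu-miR-19a-3p: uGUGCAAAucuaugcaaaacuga
mmu-miR-20a-5p: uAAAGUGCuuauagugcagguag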
